A study of Mus musculus with 2 samples.

Results

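The 5 genes of the mouse Fc gamma receptor family, Fcgr1, Fcgr2b, Fcgr3, Fcgr4 and Fcer1g, were followed across the cell types of AT3 mammary tumors. They were chosen by name, and all 5 were found among the 32285 genes counted. Fc gamma receptors bind the constant part of IgG, so that a cell can take up or attack what antibody has coated. Fcgr1 (CD64, the high-affinity receptor), Fcgr3 and Fcgr4 (low- and intermediate-affinity receptors) activate the cell through the common gamma chain encoded by Fcer1g, which carries an immunoreceptor tyrosine-based activation motif, while Fcgr2b (CD32b) signals through its own inhibitory motif and raises the threshold for activation. Myeloid cells usually carry both kinds, B cells are known for Fcgr2b alone, and NK cells for Fcgr3.

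Single-cell RNA was counted in 2 libraries of sorted tumor leukocytes, harvested 30 days after 500000 AT3 cells had been injected into female mice of 6 to 12 weeks. The WT library came from Pgd fl/fl mice and the 6PGDKO library from Pgd fl/fl LysMCre mice, in which a Cre recombinase knocked into the lysozyme locus deletes floxed Pgd, the gene of the pentose phosphate pathway enzyme 6-phosphogluconate dehydrogenase, in myeloid cells; both groups carried the floxed alleles and the tumor. Each genotype was 1 library made from a pool of 10 mice, so no spread between mice could be measured and no test between genotypes was possible; all intervals below are 95% intervals that cover counting error alone, and PCR or cell-to-cell variation is not in them. The labels name both a CD45+ and a CD11b+ sort, and the abundant T cells go against the latter.

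The WT library held 3728 barcodes and the 6PGDKO library 3014, of which 3565 and 2798 cells were kept, and no barcode was shared. The libraries had median depths of 5317.5 and 7296 unique molecular identifiers (UMIs, counts of single captured molecules) per barcode. Cells were clustered without the 5 genes, and each cluster was named from marker genes, so that every name below stands for a cell that is like that type. Macrophages (517 WT and 465 6PGDKO cells) had C1qa, a complement subunit, in 98.6% and 96.1% of cells. Monocytes were divided into classical (48 and 82 cells), non-classical (9 and 18) and a further group of 19 and 72 cells, led by Thbs1 or Ly6i and scoring highest on the macrophage markers, which are called macrophage-like monocytes here. Clusters of 267 and 424 cells that carried macrophage and lymphocyte transcripts together were kept apart as mixed cells. Pgd itself, whose floxed part is not given in the sources used here, was at 118 CPM (UMIs of the gene per 1000000 UMIs of the cell type) in WT and 27.9 CPM in 6PGDKO macrophages (log2 ratio -2.08, interval -2.36 to -1.82), and at 25.95 and 30.9 CPM in T cells.

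The motifs that set the activating chain apart from the inhibitory receptor are shown as coding sequence, with the codons of the signaling tyrosines in capitals; a script found them in the annotated reading frames of the GENCODE transcripts of GRCm39. The stretch of Fcer1g runs over codons 65 to 79 of 86 and that of Fcgr2b over codons 317 to 322 of 340.
Fcer1g, activation motif: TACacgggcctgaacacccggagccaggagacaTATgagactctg
Fcgr2b, inhibition motif: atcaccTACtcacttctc
The activation motif holds 2 tyrosine codons and the inhibition motif 1.

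On GRCm38.p6, the release that matches the mm10 build named in the submitters' processing notes, 4 of the genes lie close together on chromosome 1: Fcgr2b (ENSMUSG00000026656) at chr1:170960558-170976071, Fcgr4 (ENSMUSG00000059089) at chr1:171018926-171029761, Fcgr3 (ENSMUSG00000059498) at chr1:171051169-171065915 and Fcer1g (ENSMUSG00000058715) at chr1:171229572-171234349. Fcgr1 (ENSMUSG00000015947) lies apart, at chr3:96282909-96293969. Fcgr2b and Fcgr3 are known for near-identical extracellular parts, and reads from these parts could be divided between them. Of all pairs among the 5 reference transcripts, only Fcgr2b and Fcgr3 shared any run of 31 bases, the longest shared run being 129 bases; the shared runs ended 2786 bases before the 3′ end of the Fcgr2b transcript and 684 bases before that of Fcgr3.

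The 250 bases before a transcription start of each gene (RefSeq, GRCm38.p6) are shown because Fcgr3 and Fcgr4 followed each other closely over cell types, as given further on. Capitals mark GAGGAA on either strand, the core bound by PU.1, a transcription factor of myeloid cells. The windows of 4 genes end at the gene's outer edge, whereas the table gives 2 starts for Fcgr3, both inside the span printed above, and the first of them was used.
Fcgr1, chr3:96293970-96294219, minus strand: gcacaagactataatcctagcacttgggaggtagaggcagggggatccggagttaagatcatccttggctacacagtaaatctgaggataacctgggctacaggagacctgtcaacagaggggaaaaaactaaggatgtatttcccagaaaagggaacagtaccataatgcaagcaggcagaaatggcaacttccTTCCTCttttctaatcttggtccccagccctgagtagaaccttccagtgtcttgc
Fcgr3, chr1:171059404-171059653, minus strand: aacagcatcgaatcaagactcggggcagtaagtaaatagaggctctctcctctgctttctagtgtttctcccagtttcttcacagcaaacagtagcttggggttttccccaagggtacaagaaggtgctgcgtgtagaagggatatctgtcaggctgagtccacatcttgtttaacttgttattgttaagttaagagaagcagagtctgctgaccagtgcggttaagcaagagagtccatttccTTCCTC
Fcgr4, chr1:171018676-171018925, plus strand: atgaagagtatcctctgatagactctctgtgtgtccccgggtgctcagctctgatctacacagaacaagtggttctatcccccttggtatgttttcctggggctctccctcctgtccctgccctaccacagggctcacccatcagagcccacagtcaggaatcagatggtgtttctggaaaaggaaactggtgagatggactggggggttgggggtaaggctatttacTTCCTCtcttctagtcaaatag
Fcgr2b, chr1:170976072-170976321, minus strand: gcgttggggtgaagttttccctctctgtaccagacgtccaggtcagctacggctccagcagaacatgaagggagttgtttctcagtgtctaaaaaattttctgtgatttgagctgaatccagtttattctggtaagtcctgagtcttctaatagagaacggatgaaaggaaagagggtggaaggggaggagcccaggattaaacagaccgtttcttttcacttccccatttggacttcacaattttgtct
Fcer1g, chr1:171234350-171234599, minus strand: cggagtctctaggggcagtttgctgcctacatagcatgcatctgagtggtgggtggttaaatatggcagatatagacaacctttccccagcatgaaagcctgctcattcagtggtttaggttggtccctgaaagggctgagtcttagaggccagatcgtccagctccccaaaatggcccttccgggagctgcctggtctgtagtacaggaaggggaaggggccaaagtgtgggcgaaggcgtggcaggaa
GAGGAA stood in the windows of 3 of the 5 genes, once each in Fcgr1, Fcgr3 and Fcgr4, always on the opposite strand and beginning 55, 6 and 22 bases before the start, and in 23.3% of the 32851 windows of this length in the table. Both strands were searched, and the matches do not overlap each other. The palindromic interferon gamma activation site TTCNNNGAA was found in Fcgr1 and in 7.02% of all windows, and an interferon-stimulated response element core, GAAA followed after any 2 bases by GAAA again, in Fcgr4, beginning 73 bases before the start, and in 2.98%. These matches describe letters in a window and say nothing of binding.

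Macrophages and monocytes had all 5 genes, neutrophils had Fcgr3, Fcgr4 and Fcer1g at the level of macrophages with little Fcgr1, and lymphocytes had little of the activating receptors. The plot of levels by cell type shows this for both libraries.

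**Figure D1:**
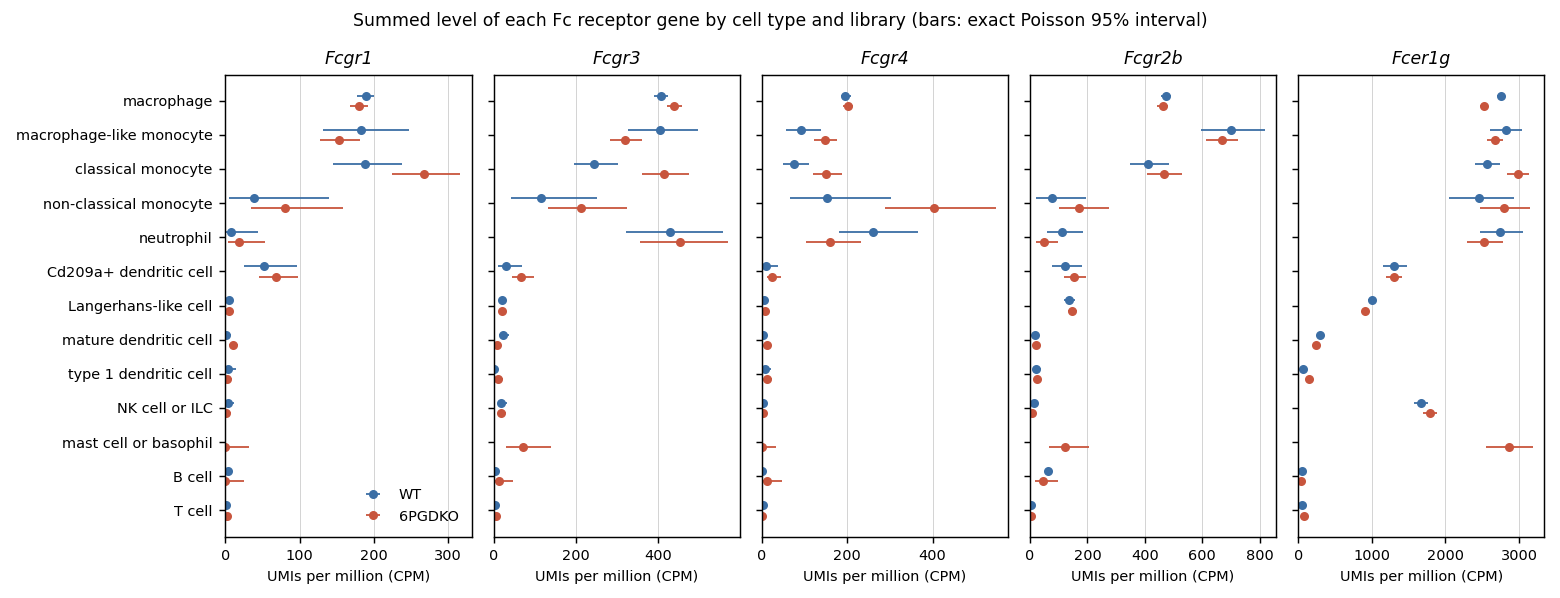
Level of each gene (horizontal axis, UMIs per 1000000 UMIs of the cell type, a separate linear scale per gene) in 13 cell types (vertical axis) of the WT (blue) and 6PGDKO (red) libraries, with exact Poisson 95% intervals. Fcgr1 and Fcgr2b were high in macrophages and in classical and macrophage-like monocytes, Fcgr3 and Fcgr4 also in neutrophils, and Fcer1g in NK cells and, at lower levels, in Cd209a+ and Langerhans-like cells as well; mast cells or basophils were named in 6PGDKO alone.

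Fcgr1, the high-affinity receptor and a common marker of macrophages, was at 189 CPM in WT macrophages (interval 178 to 201) and at 179 CPM in 6PGDKO macrophages (168 to 192). Classical monocytes had 187 and 267 CPM, and macrophage-like monocytes 183 and 153 CPM. In WT these 3 types could not be placed in order, since their intervals overlapped, whereas in 6PGDKO classical monocytes stood above macrophages. Neutrophils lay far lower, at 7.91 CPM (1 UMI) and 18.4 CPM (3 UMIs), and Langerhans-like cells had 4.66 and 4.91 CPM. T cells, which are not known to make the receptor, gave the background, at 1.38 CPM in WT and 2.46 CPM in 6PGDKO. Dendritic cells marked by Cd209a (19 and 45 cells) lay between, with 52.3 and 67.8 CPM. Fcgr1 was listed at 0 in the 36 B cells of 6PGDKO, which allows up to 8.33% of such cells to have a UMI if a count of 0 is taken to allow 3 cells.

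Fcgr3 had its highest values in neutrophils and macrophages, whose intervals overlapped in both libraries. Macrophage-like monocytes in WT and classical monocytes in 6PGDKO overlapped with both of these types. In 6PGDKO macrophage-like monocytes (282 to 359 CPM) overlapped with neutrophils (356 to 569) but not with macrophages (420 to 457). Neutrophils had 427 CPM in WT and 453 CPM in 6PGDKO, and macrophages 407 and 438 CPM. Neutrophils thus had the level of macrophages for this receptor while nearly lacking Fcgr1, although their median depth was only 2156 and 2105 UMIs per cell. Classical monocytes had 244 CPM in WT and 414 CPM in 6PGDKO, and non-classical monocytes 115 and 212 CPM. In NK cells or innate lymphoid cells (94 and 118 cells, with the NK receptor gene Ncr1 in 50.0% and 55.9% of cells) Fcgr3, for which NK cells are known, reached only 19.0 CPM in WT (interval 10.4 to 31.8) and 18.7 CPM in 6PGDKO (10.5 to 30.8). That was above the 4.03 and 7.08 CPM of T cells by intervals that did not overlap, and far under the level of macrophages.

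Fcgr4, an IgG2-binding receptor that non-classical monocytes are known for, had its highest level there in the 6PGDKO library, at 403 CPM (interval 288 to 549, 40 UMIs in 18 cells, 72.5% of them from 5 cells). In the WT library the 9 non-classical monocytes had 154 CPM (66.4 to 303, 8 UMIs), which could not be told from macrophages or neutrophils. Macrophages had 196 and 201.5 CPM and neutrophils 261 and 159 CPM. Classical monocytes had less than macrophages, at 76.7 CPM in WT and 151 CPM in 6PGDKO. Dendritic cells, B cells, NK cells and T cells ranged from 1.30 to 24.2 CPM over both libraries.

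Fcgr2b, the inhibitory receptor, peaked in macrophage-like monocytes, at 700 CPM in WT (interval 596 to 817) and 667 CPM in 6PGDKO (614 to 724), above every other type of its library by intervals that did not overlap. A subcluster of macrophages, given further on, had a level that overlapped with theirs. Macrophages followed with 474 and 462.5 CPM, and classical monocytes with 412 and 465 CPM, and these could not be ordered. Outside these cells Fcgr2b stood above the T cell level of 5.08 and 5.23 CPM, by intervals that did not overlap in either library, in each group of dendritic cells and in B cells. Langerhans-like cells, the epidermal-type dendritic cells marked by Cd207 and Epcam, had 137 and 147 CPM, and B cells 61.2 CPM in WT (569 cells) and 46.6 CPM in 6PGDKO (7 UMIs in 36 cells). The Cd209a group had 120 and 152.5 CPM, and mature and type 1 dendritic cells 17.5 to 23.9 CPM. Neutrophils had 111 CPM in WT and 49.0 CPM in 6PGDKO, from 14 and 8 UMIs.

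Fcer1g, the shared signaling chain, had the broadest range. It was at 2748 CPM in WT and 2519 CPM in 6PGDKO macrophages, and at 2746 and 2524 CPM in neutrophils. Monocytes of the 3 groups had 2460 to 2983 CPM. NK cells or innate lymphoid cells, in which the chain serves natural cytotoxicity receptors too, had 1664 and 1793 CPM while each of the 4 receptors was under 20 CPM there. The chain also marked mast cells or basophils (16 cells, 6PGDKO alone), where it serves the IgE receptor, at 2856 CPM beside 123 CPM of Fcgr2b, 70.3 CPM of Fcgr3 and no UMI of Fcgr1 or Fcgr4, which by the same floor of 3 allows up to 18.8% of such cells to have one. Among dendritic cells the level went down stepwise from the Cd209a group (1303 and 1297 CPM) over Langerhans-like cells (1004 and 912 CPM) and mature dendritic cells (292 and 241 CPM) to type 1 dendritic cells (68.7 and 143 CPM), and no neighbours in this row had overlapping intervals in either library. T cells had 48.2 and 80.4 CPM and B cells 53.4 and 33.3 CPM. For low levels such as these, the share of 5 cells is given as a measured limit: they held 58.5% of the Fcer1g UMIs of the 569 WT B cells and 88.2% of those of the 32 WT type 1 dendritic cells.

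By number of molecules, macrophages held 54.3% (Fcer1g) to 63.3% (Fcgr1) of each gene's UMIs among kept WT cells and 35.8% to 44.8% among kept 6PGDKO cells. Mixed cells held most of the remainder, 24.1% to 30.5% in WT and 35.1% to 40.7% in 6PGDKO; they were 267 WT and 424 6PGDKO cells.

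The balance of the inhibitory against the activating receptors was measured as the share of Fcgr2b among the UMIs of the 4 receptor genes. Capture can differ between genes, so the share is compared between cell types and not read as a ratio of proteins. It varied over a wide range, with no clear division between the cell types. Fcgr2b made up most receptor UMIs in Langerhans-like cells, 82.2% in WT (interval 76.5 to 87.1) and 81.5% in 6PGDKO (77.2 to 85.4), and in B cells, 89.2% (83.3 to 93.6) and 63.6% (30.8 to 89.1, 11 UMIs). It made up about as much as the activating receptors together in macrophage-like monocytes, 50.8% and 51.9%, and less in macrophages, 37.4% (36.3 to 38.6) and 36.1% (34.9 to 37.3). It was smaller still in non-classical monocytes, 4 of 20 UMIs in WT and 19.8% in 6PGDKO, and in neutrophils, 13.7% (7.71 to 22.0) and 7.21% (3.16 to 13.7), where Fcgr3 alone gave 52.9% and 66.7%. Within this range lay classical monocytes (44.8% and 35.9%), Cd209a cells (56.1% and 48.8%) and type 1 dendritic cells (61.1% and 50.0%). Mature dendritic cells (38.2% and 39.7%) and NK cells or innate lymphoid cells (34.5% and 21.7%) did so too.

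**Figure D2:**
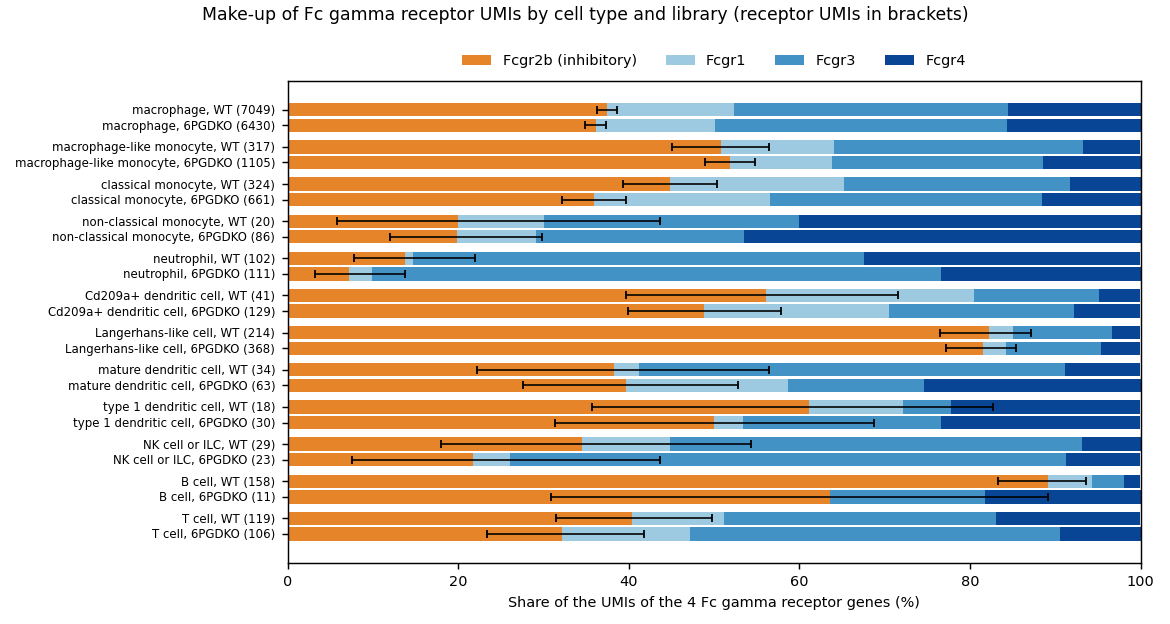
Share of each receptor gene (stacked bars, percent) among the UMIs of Fcgr1, Fcgr2b, Fcgr3 and Fcgr4 in 12 cell types of both libraries, with the number of receptor UMIs in brackets and the exact Clopper-Pearson 95% interval of the Fcgr2b share as a black bar. Fcgr2b (orange) took 82.2% in WT Langerhans-like cells and 37.4% in WT macrophages, and 13.7% in WT neutrophils.

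In T cells the few receptor UMIs (119 and 106) had an Fcgr2b share of 40.3% and 32.1%, near the 37.4% and 36.1% of macrophages, whereas Langerhans-like cells and WT B cells had shares whose intervals lay wholly above those of T cells.

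Activating and inhibitory receptors were found in the same macrophages. To compare cells at 1 depth, each was thinned at random to 2000 UMIs, which left out 22 of 517 WT and 34 of 465 6PGDKO macrophages. A UMI of Fcgr2b and of at least 1 activating receptor was then found in 42.8% of 495 WT macrophages (interval 38.4 to 47.3) and in 38.7% of 431 6PGDKO macrophages (34.1 to 43.5). Cells with an activating receptor and no Fcgr2b UMI were 30.3% and 37.1%, and the reverse was 14.7% and 13.5%. Before thinning, Fcgr2b was seen in 89.7% and 87.3% of macrophages, so that a missing UMI at 2000 UMIs does not mark a cell without the transcript.

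**Figure D3:**
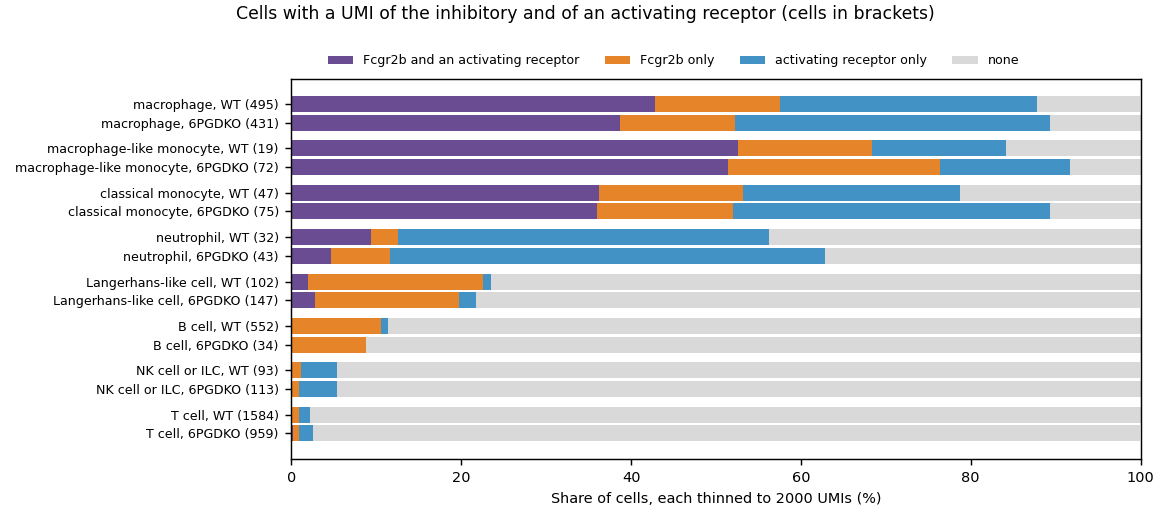
Share of cells (percent), each thinned to 2000 UMIs, with a UMI of Fcgr2b and of an activating receptor, of either alone or of none, in 8 cell types of both libraries (number of cells in brackets). Macrophages (42.8% and 38.7%) and macrophage-like monocytes (52.6% and 51.4%) most often held both, and among neutrophils an activating receptor alone was more frequent than both or Fcgr2b alone, as was Fcgr2b alone among Langerhans-like and B cells.

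Thinning took out 22 WT and 28 6PGDKO neutrophils. Of the 32 and 43 that were left, 43.8% and 51.2% had an activating receptor alone and 9.38% and 4.65% both. Langerhans-like cells were the opposite, with Fcgr2b alone in 20.6% of 102 and 17.0% of 147 cells and an activating receptor alone in 0.980% and 2.04%. B cells had Fcgr2b alone in 10.5% of 552 WT and 8.82% of 34 6PGDKO cells. In T cells at the same depth Fcgr2b was found in 0.884% of 1584 WT and 0.938% of 959 6PGDKO cells, which is the background for these shares (median depths before thinning 4873 and 5121.5 UMIs).

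Over 22 profiles (12 cell types, by library, with at least 20 cells each), the gene whose pattern of log2 level was most like that of Fcgr3 was Fcgr4 (Pearson r = 0.962), out of 7981 genes with at least 500 UMIs, and the reverse held too. The profiles come from the same 2 libraries and differ in depth, so r is a description. Next to Fcgr3 came Clec4a2, an inhibitory C-type lectin receptor (r = 0.961), and Pla2g7 (r = 0.957). Fcgr2b was most like Csf1r, the receptor for the macrophage growth factor (r = 0.939), then Cybb, the catalytic subunit of the phagocyte oxidase (r = 0.936), and Ctss, a lysosomal protease (r = 0.910). Fcgr1 was most like Clec4a3 (r = 0.945), Mtus1 (r = 0.942) and Spon1 (r = 0.938), and Fcer1g most like Tyrobp, the other adaptor of its kind (r = 0.913), Adssl1 (r = 0.880) and Naip2 (r = 0.874). Among the members the weakest likeness was that of Fcgr1 and Fcer1g (r = 0.66).

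Macrophages were not uniform in these receptors. Their 5 subclusters are named by their leading genes.

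**Figure D4:**
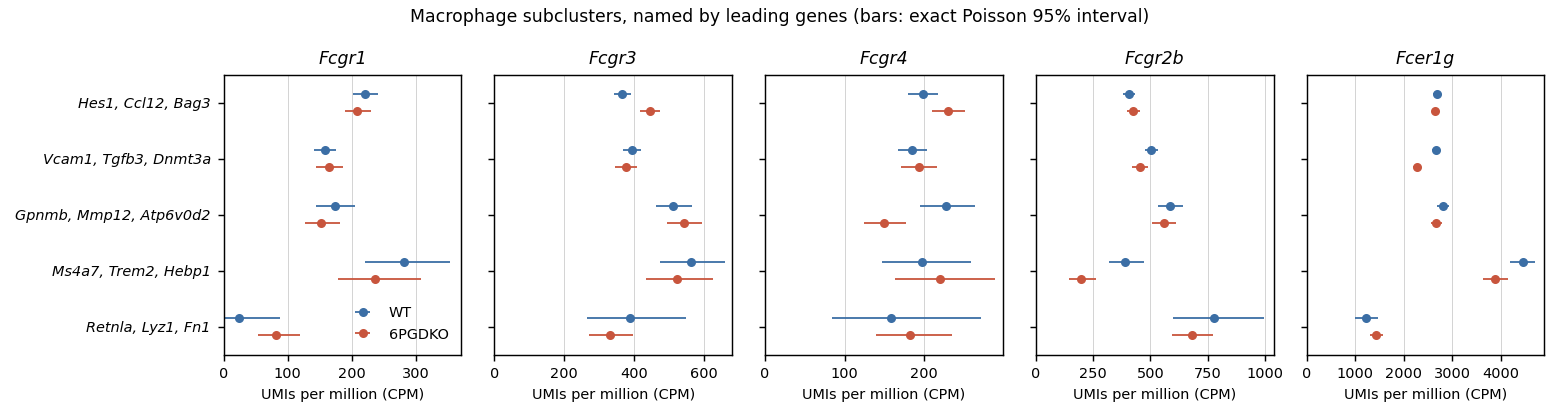
Level of each gene (CPM, linear scale per gene, exact Poisson 95% interval) in the 5 macrophage subclusters of the WT (blue) and 6PGDKO (red) libraries. The Retnla subcluster had the lowest Fcgr1 and Fcer1g, and the Ms4a7 subcluster the highest Fcer1g, in both libraries. The highest value of Fcgr2b was that of the Retnla subcluster, but its interval overlapped that of the Gpnmb subcluster in both libraries.

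The subcluster led by Retnla, a product of alternatively activated macrophages, had Fcgr2b at 779 CPM in WT (12 cells) and 679 CPM in 6PGDKO (42 cells), and Fcgr1 at only 24.4 CPM (2 UMIs) and 81.9 CPM. Its Fcgr2b level overlapped by intervals with that of macrophage-like monocytes (700 and 667 CPM) in both libraries. Its Fcgr2b share of receptor UMIs was 57.7% and 53.3%. The subcluster led by Ms4a7 and Trem2 (59 and 50 cells), which was shallow with a median of 3894 UMIs, had the lowest shares, 27.2% and 16.8%, with Fcgr3 at 563 and 525 CPM and Fcer1g at 4447 and 3879 CPM. The 2 largest subclusters, led by Hes1 (190 and 177 cells) and Vcam1 (205 and 135 cells), had Fcgr2b shares of 34.0% and 32.4%, and of 40.6% and 38.2%. The subcluster led by Gpnmb and Mmp12, genes of lipid-laden and matrix-degrading macrophages (51 and 61 cells), had 586 and 557.5 CPM of Fcgr2b and shares of 39.1% and 39.7%. The order of the 5 shares was the same in WT and 6PGDKO except for the Gpnmb and Vcam1 subclusters, which changed places.

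The comparison of genotypes asks whether loss of Pgd in myeloid cells went with another level of these receptors. In macrophages none of the 5 genes differed by 1.5-fold between the libraries, while 12.2% of the 10476 genes with at least 20 UMIs did (1276 genes) and the median log2 ratio of all of them was 0.04. Fcgr1 had a log2 ratio of 6PGDKO over WT of -0.07 (interval -0.20 to 0.06), Fcgr4 of 0.04 (-0.08 to 0.17) and Fcgr2b of -0.04 (-0.12 to 0.05). Fcgr3 had a log2 ratio of 0.11 (0.02 to 0.19) and Fcer1g of -0.13 (-0.16 to -0.09), both with intervals that left out 0. All 5 intervals lay inside 1.5-fold; the spread between mice is not in them. The Fcgr2b share was 37.4% in WT (36.3 to 38.6) and 36.1% in 6PGDKO (34.9 to 37.3), a log2 odds ratio of -0.08, and these intervals overlapped. With the mixed cells counted as macrophages, an alternative chosen after seeing the data, Fcgr3 turned to -0.04 (-0.11 to 0.02). In that setting Fcgr2b was at -0.26 (-0.33 to -0.20), Fcgr4 at -0.19 (-0.29 to -0.10) and Fcer1g at -0.23 (-0.26 to -0.20).

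**Figure D5:**
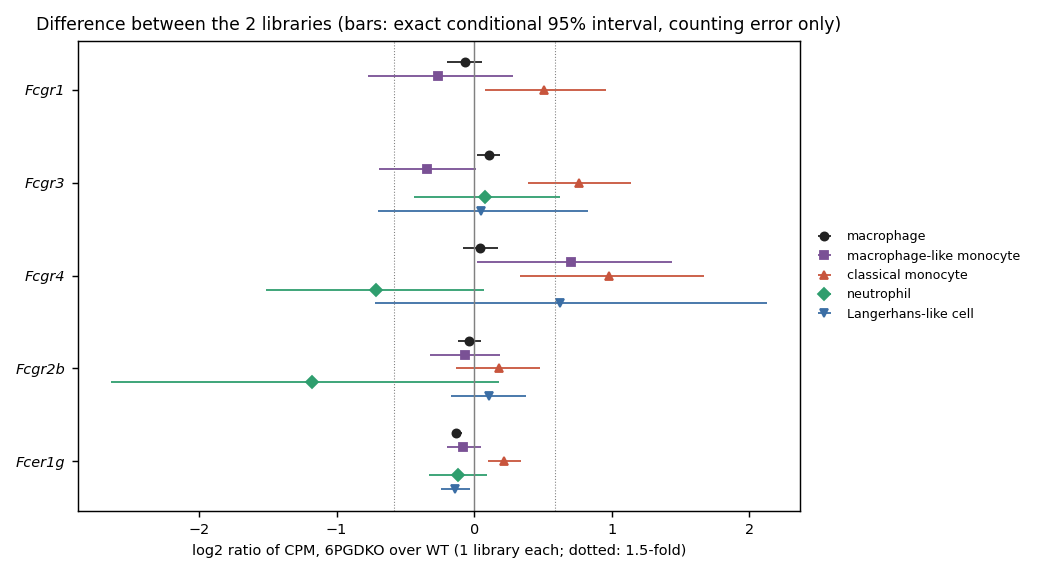
Log2 ratio of CPM, 6PGDKO over WT (horizontal axis), of each gene in 5 cell types with exact conditional 95% intervals, for genes with at least 20 UMIs; dotted lines mark 1.5-fold. Macrophages (black) lay between -0.13 and 0.11, and classical monocytes (red) at 0.98 for Fcgr4, 0.76 for Fcgr3 and 0.51 for Fcgr1.

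Within the macrophage subclusters the direction varied. Fcgr2b was lower in 6PGDKO in 4 of 5 subclusters, with log2 ratios from -0.98 to 0.07, and Fcer1g in 4 of 5, from -0.22 to 0.24. Among ratios whose interval left out 0, the largest was that of Fcgr2b in the Ms4a7 subcluster, 389.5 CPM in WT and 198 CPM in 6PGDKO (log2 ratio -0.98, interval -1.51 to -0.46, 101 and 46 UMIs). Fcgr4 was lower in the Gpnmb subcluster, 227 and 149 CPM (-0.61, -0.95 to -0.27), and had log2 ratios of 0.06 to 0.21 in the other 4. Fcgr3 was higher in the Hes1 subcluster, 367 and 446 CPM (0.28, 0.15 to 0.42).

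Classical monocytes showed larger differences, all 5 genes being higher in 6PGDKO. Fcgr4 went from 76.7 CPM (27 UMIs) in WT to 151 CPM (77 UMIs) in 6PGDKO, a log2 ratio of 0.98 (interval 0.33 to 1.67). Fcgr3 had a log2 ratio of 0.76 (0.39 to 1.14), Fcgr1 of 0.51 (0.08 to 0.96), Fcer1g of 0.22 (0.10 to 0.34) and Fcgr2b of 0.18 (-0.13 to 0.48). Fcgr3 and Fcgr4, 2 of the 5 members, were past 1.5-fold upwards, where 12.5% of the 4475 genes tested in these cells were. The share of Fcgr2b was 44.8% in WT (39.3 to 50.3) and 35.9% in 6PGDKO (32.2 to 39.6). The log2 odds ratio was -0.54. The intervals of the shares overlapped slightly, which does not decide whether the shares differed beyond counting error. These cells made up 3 clusters in different proportions, led by Thbs1 and Chil3 (15 and 36 cells), by Chil3 and Ifitm6 (13 and 27) and by Ly6i (20 and 19). Fcgr3 differed most in the Ly6i cluster, 91.7 CPM in WT and 412 CPM in 6PGDKO (15 and 53 UMIs, log2 ratio 2.17, 1.32 to 3.10), while the other clusters had log2 ratios of 0.03 and 0.27. Fcer1g had log2 ratios of 0.46 (0.25 to 0.67), 0.19 (-0.05 to 0.44) and -0.04 (-0.25 to 0.17) in the clusters led by Thbs1, Chil3 and Ly6i. With clusters at resolution 1.6, which left 11 and 20 classical monocytes, the log2 ratio of Fcgr3 was 0.11 (-0.52 to 0.77) and that of Fcgr4 2.31 (0.60 to 4.68).

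In macrophage-like monocytes, Fcgr4 alone had an interval that left out 0, with 91.3 CPM in WT (21 UMIs, 71.4% of them from 5 cells) and 148 CPM in 6PGDKO (log2 ratio 0.70, 0.02 to 1.44), and it was the 1 member past 1.5-fold, where 20.6% of the 5249 genes tested were past it upwards. In the larger of its clusters, led by Thbs1 and Mmp19 (15 and 50 cells), the log2 ratio of Fcgr4 was 0.34 (-0.41 to 1.15), and in the other, led by Ly6i and Cxcl9 (4 and 22 cells), it was 2.32 (0.39 to 5.40) from 2 and 52 UMIs. Over 9 settings, the reported one included, the ratio ranged from 0.19 to 1.02 and was under the limit of 1.5-fold in 3, when cells were thinned, when per-cell CPM was averaged and, at the lowest value, without 4 WT and 3 6PGDKO cells holding 2 or more UMIs of T or B cell genes. Fcgr2b differed by -0.07 (-0.32 to 0.19). In non-classical monocytes, 3 of 4 genes with enough UMIs were past 1.5-fold upwards, against 18.1% of 1107 genes, from only 9 and 18 cells; Fcgr4 had a log2 ratio of 1.39 (0.28 to 2.70). In neutrophils Fcgr2b (-1.18, -2.64 to 0.18) and Fcgr4 (-0.71, -1.51 to 0.07) were past 1.5-fold downwards, as were 23.9% of the 1795 genes tested, and their intervals held 0. In Langerhans-like cells Fcgr2b differed by 0.11 (-0.17 to 0.38) and Fcer1g by -0.14 (-0.24 to -0.03), and 1 of 4 members (Fcgr4, 7 and 17 UMIs) was past 1.5-fold upwards, against 8.32% of 8437 genes. In NK cells or innate lymphoid cells Fcer1g differed by 0.11 (-0.00 to 0.22), and neither of the 2 members tested was past 1.5-fold, where 19.3% of genes were.

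The B cells were too few in 6PGDKO for a comparison, with a log2 ratio of Fcgr2b of -0.39 (-1.73 to 0.69) and 1 of 2 members tested (Fcer1g, 123 and 5 UMIs) past 1.5-fold downwards, against 26.4% of genes. In T cells 3 of 5 members were past 1.5-fold upwards, against 8.32% of 11413 genes, and Fcer1g had a log2 ratio of 0.74 (0.55 to 0.92). Without the 155 and 135 T cells that held 2 or more UMIs of 5 macrophage genes, this ratio was 0.39 (0.14 to 0.64) and that of Fcgr3 went from 0.81 to 0.10 (-1.04 to 1.19). Among the remaining dendritic cells, Fcgr3 was past 1.5-fold upwards in the Cd209a group (1 of 4 members tested, against 14.5% of genes, 6 and 28 UMIs) and downwards in mature dendritic cells (1 of 3, against 8.59%, 17 UMIs from at most 5 cells in WT and 10 in 6PGDKO), and Fcer1g upwards in type 1 dendritic cells (1 of 2, against 15.2%; log2 ratio 1.06, 0.48 to 1.68).

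Markers of other cell types were summed beside these values. In macrophages the T cell markers came to 77.4 CPM in WT and 80.5 CPM in 6PGDKO and the B cell markers to 122 and 80.1 CPM, against 6700 and 6650 CPM of T cell markers in T cells and 7980 and 5990 CPM of B cell markers in B cells. In classical monocytes the macrophage markers came to 4850 CPM in WT and 6350 CPM in 6PGDKO, and the neutrophil markers to 1640 and 2480 CPM; their part in the higher Fc receptor levels was not tested. In macrophage-like monocytes the macrophage markers, all 15 detected, came to 20400 and 12400 CPM. In non-classical monocytes they came to 3440 CPM in WT (7 of 15 at 0) and 5090 CPM in 6PGDKO (4 at 0). The sum was thus higher in 6PGDKO in classical and non-classical monocytes and lower in macrophage-like monocytes. In neutrophils, where Fcgr2b and Fcgr4 had the lower values in 6PGDKO, the macrophage markers came to 2780 CPM in WT (1 of 15 at 0) and 1180 CPM in 6PGDKO (3 at 0). In mature dendritic cells, where Fcgr3 and Fcer1g were lower in 6PGDKO, they came to 1880 and 896 CPM, and in Langerhans-like cells to 2020 and 1350 CPM. In type 1 dendritic cells, where Fcer1g was higher in 6PGDKO, the macrophage markers came to 370 and 542 CPM, the NK cell markers to 208 and 491 CPM and the T cell markers to 287 and 920 CPM. The part of these transcripts in the members' values was not tested in any of these types. In mixed cells, where T cell markers came to 2130 and 2290 CPM, Fcgr2b was at 311.5 CPM in WT and 257.5 CPM in 6PGDKO (log2 ratio -0.27, -0.38 to -0.17) and Fcgr3 at 223 and 243 CPM (0.12, 0.01 to 0.24); none of the 5 members was past 1.5-fold, where 10.7% of genes were.

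The wider pathway was followed in lists of signaling partners, whose counts in macrophages stand beside the 12.2% of all genes past 1.5-fold either way and the 6.7% past it upwards. Of 29 kinases, adaptors and other molecules downstream of activating receptors, all 29 were tested in macrophages and 1 was past 1.5-fold, Lat, an adaptor best known from T cells, with 14 and 20 UMIs; the median log2 ratio was 0.00, where 0.04 was that of all genes. Syk, the kinase that the activation motif recruits, was at 161.5 CPM in WT and 180 CPM in 6PGDKO macrophages. Of 12 inhibitory signaling genes 1 was past 1.5-fold upwards, a share near that of all genes. It was Dok2, an adaptor that dampens kinase signaling (7.72 and 16.95 CPM, log2 ratio 1.13, 0.59 to 1.70), while Inpp5d, the phosphatase SHIP1 through which Fcgr2b acts, was at 157 and 178 CPM. Of 6 other Fc receptors tested (median log2 ratio -0.34), 1 was past the limit, Fcrls, an Fc receptor-like molecule, from 70.0 CPM in WT to 155 CPM in 6PGDKO (log2 ratio 1.15, 0.97 to 1.33), and the neonatal receptor Fcgrt was at 82.8 and 71.0 CPM.

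Of 6 tested receptors and adaptors that use the same kind of chain, 3 were past 1.5-fold upwards in macrophages, where 6.7% of all genes were, with a median log2 ratio of 0.50. They were Clec4e (Mincle, a receptor for mycobacterial cord factor and dead cells), at 27.1 and 46.45 CPM (0.78, 0.47 to 1.08), Clec4d, its partner, at 50.3 and 78.35 CPM (0.64, 0.41 to 0.87), and Clec4b1, at 3.95 and 7.18 CPM (0.86, 0.06 to 1.70). Clec4e was also past the limit in macrophage-like monocytes (5 and 48 UMIs) and in classical monocytes (65.3 and 124 CPM, log2 ratio 0.92, 0.21 to 1.68). It was 1 of 5 tested of its list in each, where 20.6% and 12.5% of all genes were past the limit upwards. Tyrobp was at 2443 and 2203 CPM in macrophages. Of 14 other inhibitory receptors tested in macrophages, Pecam1 was past the limit downwards (12.75 and 6.58 CPM, -0.95, -1.60 to -0.34) and Siglecf upwards on 6 and 14 UMIs. Of 4 IgG heavy chain genes, the source of the ligand, Ighg1 alone had 20 or more UMIs in macrophages, 16 and 17.

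In classical monocytes the kinase Fgr, 1 of the Src family members that phosphorylate these receptors, was at 264 CPM in WT and 128 CPM in 6PGDKO (log2 ratio -1.05, -1.53 to -0.58), and 4 activating signaling genes were past 1.5-fold downwards and 2 upwards of 24 tested, where 24.8% of all genes were past it either way. Gab2, an adaptor, was among those upwards (8 and 28 UMIs, 1.27, 0.10 to 2.62). Was, an actin regulator (-0.78, -1.51 to -0.06), and Plcg2, a phospholipase (-0.65, -1.33 to 0.04), were among those downwards. Fcgrt had 4 and 16 UMIs in these cells (1.47, -0.17 to 3.51). Ptpn11, a phosphatase, was at 51.1 and 13.7 CPM (-1.90, -3.40 to -0.57). Among the inhibitory receptors Pirb was lower (321 and 182.5 CPM, -0.81, -1.23 to -0.41) and Lilr4b higher (142 and 267 CPM, 0.91, 0.43 to 1.41), 2 of 9 tested. In macrophage-like monocytes, where 30.3% of all genes were past the limit either way, 6 of 11 inhibitory signaling genes were past it, 4 upwards and 2 downwards, among them Csk, the kinase that restrains the Src family (91.3 and 162 CPM, 0.83, 0.16 to 1.56). Dok2 (0.97, -0.76 to 3.36) and Ptpn11 (-0.65, -1.91 to 0.75) had intervals that held 0. Of 24 activating signaling genes, the exchange factor Vav3 (1.62, -0.39 to 4.75), the kinase Src (0.84, -0.92 to 3.23) and Was (0.66, -0.37 to 1.86) were past the limit upwards and Pik3cd downwards (-0.69, -1.68 to 0.37), all with intervals that held 0. Of 10 other inhibitory receptors, Siglece (1 and 20 UMIs, 2.42, -0.22 to 7.79) and Cd72 (209 and 318 CPM, 0.61, 0.16 to 1.08) were past it upwards and Pilra downwards (143.5 and 75.7 CPM, -0.92, -1.55 to -0.27). In neutrophils, where 37.5% were, Clec4n (Dectin-2, which signals through the Fcer1g chain) was at 728 and 423 CPM (-0.78, -1.26 to -0.32), 1 of 5 tested of its list, and 5 of 15 activating signaling genes were past the limit, 2 upwards and 3 downwards.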

How the data were processed

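The authors deposited unnormalized UMI counts per gene and barcode for each library (Cell Ranger 6.1.2, build mm10, per the file headers and the submitters' processing notes); Seurat is also named there. The counts of multiplexing oligonucleotides were used only to check the libraries (oligonucleotide 309 led every WT barcode and 310 every 6PGDKO barcode). Both pools were loaded together, so free RNA could pass between them. The members, lists and tests were chosen with earlier results of these data known.

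The study's own limits on barcodes were applied (from 500 up to 7500 detected genes, mitochondrial share no higher than 15%), which left more cells than the study states for either genotype. They were clustered in Seurat 5.3.0 (R 4.3.3) with 2000 variable genes less 7 (the 5 members, Pgd and Lyz2), 30 principal components, 20 neighbours and Louvain resolution 0.8, in 3 rounds: all cells, myeloid cells and monocytes, the last at resolution 1.6, which was chosen after seeing the data. A cluster was named where its list had the highest mean marker score by at least 0.05 and 3 or more markers in 25% of cells; names may therefore differ from the study's. Doublets were kept, since Scrublet (scanpy 1.11.5) called too few cells to be of use.

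UMIs were summed per cell type and library and divided by their total (CPM). Intervals were exact Poisson for levels, exact Clopper-Pearson for shares and exact conditional for log2 ratios, computed in Python 3.11.15 with scipy 1.17.1. They cover counting error only. Those of log2 ratios alone were checked, on simulated Poisson counts of macrophages. Such counts follow the model that the interval assumes, so the check bears on the computation and not on other variation. Log2 odds ratios of the Fcgr2b share are given without an interval. Overlap of the intervals of 2 shares does not decide whether the shares differ. With 1 library per genotype no p-value was computed. Past the limit means 1.5-fold among genes with 20 or more UMIs in the 2 libraries. Named genes were the members, Pgd, the 3 genes most like each member by Pearson r of log2(CPM + 10), and, per list and cell type, up to 4 genes past 1.5-fold with the largest absolute log2 ratios in macrophages, macrophage-like monocytes and classical monocytes; Syk, Inpp5d, Fcgrt (in macrophages), Tyrobp, Ighg1 and Clec4n (in neutrophils) were added after their values were seen. A gene that this rule would name is not reported here. Alternatives are given in the closing section, with TMM scaling from edgeR 4.0.16 among them.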

Additional observations from a re-analysis of the deposited data

Results flagged for a closer look

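Among the named immune cell types other than T cells, Fcer1g was the 1 gene of the family whose log2 ratio of 6PGDKO over WT had opposite signs in 2 cell types, each with at least 100 UMIs per library and an interval that left out 0. Fcgr1, Fcgr3 and Fcgr4 had that many UMIs in macrophages alone, so they could not meet this rule. On fewer UMIs, Fcgr3 was higher in 6PGDKO classical monocytes (0.76, 0.39 to 1.14) and lower in 6PGDKO mature dendritic cells (-1.49, -2.78 to -0.28). Fcer1g was higher in 6PGDKO classical monocytes (0.22, 0.10 to 0.34) and lower in 6PGDKO macrophages (-0.13, -0.16 to -0.09), Langerhans-like cells (-0.14, -0.24 to -0.03) and mature dendritic cells (-0.28, -0.53 to -0.02). The ratio in classical monocytes exceeded that in macrophages by 0.35, that in Langerhans-like cells by 0.36 and that in mature dendritic cells by 0.50 on the log2 scale. In the 3 clusters of classical monocytes the ratio was 0.46 (0.25 to 0.67), 0.19 (-0.05 to 0.44) and -0.04 (-0.25 to 0.17). The summed macrophage markers were lower in 6PGDKO in mature dendritic cells (1880 and 896 CPM) and in Langerhans-like cells (2020 and 1350 CPM), and higher in classical monocytes (4850 and 6350 CPM), and their part in the ratios was not tested. These differences between cell types were not tested, since each genotype is 1 library, and 5 cells held 63.1% of the Fcer1g UMIs of WT mature dendritic cells, where the ratio was -0.59 without the 5% of cells with the highest doublet scores.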

How the results depend on the processing

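No paired analysis was possible because each genotype is 1 library, and no library could be left out for the same reason. Of 60 alternative log2 ratios of the members in macrophages, 50 stayed within the interval of the reported value. With mixed cells counted as macrophages, chosen after seeing the data, Fcgr3 reversed to -0.04, and Fcgr2b was at -0.26, Fcgr4 at -0.19 and Fcer1g at -0.23; the mixed cells had lower levels and were a larger part of 6PGDKO. Fcgr2b was at -0.17 at resolution 1.6 and at -0.12 with subclusters weighted alike in both libraries (also chosen after seeing the data), and Fcgr4 at -0.09 when cells were thinned to 2000 UMIs. Fcer1g was at -0.08 under a stricter cell filter, at -0.18 as a mean of per-cell CPM and at -0.09 with the total taken without mitochondrial and ribosomal protein genes. The Fcgr2b share in 6PGDKO macrophages (36.1%) was 34.7% under that filter, 34.7% at resolution 0.4, 34.5% at resolution 1.6 and 37.7% after thinning; the cause was not tested. The share of genes past the limit in macrophages was 3.74% at 2-fold, 20.3% with a minimum of 5 UMIs and 4.82% with a minimum of 100. Of 360 alternative ratios in other cell types 342 stayed within the interval and none reversed a ratio whose interval left out 0. The median of all genes moved with TMM scaling by 0.21 (log2) in non-classical monocytes, 0.23 in neutrophils, 0.13 in Cd209a dendritic cells, -0.19 in B cells and -0.11 in T cells, and the log2 ratio of Fcgr3 in neutrophils ranged from -0.74 to 0.32 over 11 settings, the reported one included, and that of Fcer1g there from -0.33 to 0.15. The macrophage-like monocytes were not named at resolution 1.6 or under the stricter filter, and the Cd209a dendritic cells were not named at resolution 1.6. Unnamed cells went from 61 WT and 80 6PGDKO cells to 275 and 500 at resolution 1.6. The stricter filter left 20 WT and 12 6PGDKO neutrophils, in which the Fcgr3 ratio was -0.74.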
